A study of Mus musculus with 8 samples.

Results

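Kirrel2 and Nphs1 are neighbouring genes on mouse chromosome 7 that are transcribed away from each other, and both were followed through the 8 RNA-seq libraries of a study of the chromatin protein CTCF. The pair is 2 of the 18094 genes of the expression table. It was chosen by name, after both genes had been seen to be far higher in CTCF-K20R than in WT embryoid bodies (EBs), so the day 4 values of the pair and the contrast between the days are given as a description, with no test. Only the day 0 comparison of the pair and the values of other genes were tested.

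Nphs1 encodes nephrin, a large adhesion protein of the immunoglobulin superfamily, and Kirrel2 encodes a nephrin-like protein of the same superfamily, also known as NEPH3 or filtrin. Nephrin and the NEPH proteins bind each other across the gap between the foot processes of podocytes, the epithelial cells of the kidney filter, and form the slit diaphragm there. Both genes are also known in the developing nervous system and the pancreas, where they are targets of the PTF1 complex, which contains the transcription factors PTF1A and RBPJ. Neither kidney cells nor podocytes are among the cells measured here.

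The cells were mouse embryonic stem cells (mESCs) of the E14Tg2A line, grown on inactivated mouse fibroblasts in medium with leukemia inhibitory factor and 2 inhibitors (2i), and the EBs that form from them in hanging drops without leukemia inhibitory factor. WT mESCs and mESCs in which CRISPR/Cas9 had changed lysine 20 of CTCF to arginine (CTCF-K20R) were sampled before differentiation (day 0) and as EBs on day 4, with 2 libraries for each genotype and day. CTCF-K20R cells came from selected targeted colonies, and the number of clones behind these libraries is not given in the sources used here, so genotype and clone cannot be told apart. The study asked how the mutation affects differentiation.

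The values are normalized counts, which are read counts per gene scaled by the authors between libraries. They summed to between 19412659 and 21311513 per library, and 3 reads, taken as the limit of detection, corresponded to between 2.43 and 3.44 normalized counts. Such limits and count-based intervals take in counting error alone. The 2 WT libraries of each day differed by less than sampling noise (the mean squared difference was 0.314 of that expected from sampling in mESCs and 0.278 in EBs, against 4.00 and 4.36 for the CTCF-K20R pairs), so each WT pair was averaged and counted as 1 sample and all errors come from the CTCF-K20R libraries. The study's methods speak of biological replicates, and nothing in the labels says that libraries of a group came from separate cultures. WT libraries this close make it easy for groups of 2 to lie apart, and the share of all genes with separate groups was not counted. Summed over 6 genes, markers of pluripotent cells were 1.01-fold as high in CTCF-K20R as in WT mESCs. In the same comparison, fibroblast markers summed to 0.307-fold, endoderm markers to 0.865-fold, mesoderm markers to 1.26-fold and neural markers to 1.32-fold. The part of such differences in the day 0 values of the pair was not tested. Relative to WT EBs, in CTCF-K20R EBs 6 mesoderm markers summed to 0.0635-fold, 6 endoderm markers to 0.0252-fold, 4 neural markers to 1.41-fold, 7 fibroblast markers to 1.44-fold and the 6 pluripotency markers to 2.04-fold. Of the endoderm markers, 4 lay below and 2 above WT in both CTCF-K20R EB libraries. Nes held most of the neural sum, and Pou5f1 most of the pluripotency sum in EBs. Pax6, a transcription factor of neural progenitors, rose from 12.4 and 16.0 normalized counts in WT to 100.2 and 84.2 in CTCF-K20R EBs (log2 fold change 2.61, adjusted p = 0.00432 from limma), and Sox1, also called, is described with the nearest profiles. Ctcf itself had 4241 and 4256 normalized counts in WT EBs, against 4926 and 4771 with the mutation, and the point mutation cannot be read from such values.

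In GENCODE vM21 (GRCm38, the mm10 build), Kirrel2 (ENSMUSG00000036915) lies on the minus strand of chromosome 7 from 30447534 to 30457690, and Nphs1 (ENSMUSG00000006649) lies on the plus strand from 30458315 to 30487223. The outermost annotated starts are 625 bases apart, and the starts of their principal coding transcripts, which are 3352 and 4608 bases long, are 2210 bases apart. The sequence at the start of Kirrel2, on the side of Nphs1, is shown because these neighbours moved together. It is given as the 250 bases before the RefSeq start of Kirrel2 (chr7:30457516-30457765 on GRCm38.p6, minus strand), with the 3 copies of TGGGAA, the core recognised by RBPJ, in capitals.

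Kirrel2 promoter: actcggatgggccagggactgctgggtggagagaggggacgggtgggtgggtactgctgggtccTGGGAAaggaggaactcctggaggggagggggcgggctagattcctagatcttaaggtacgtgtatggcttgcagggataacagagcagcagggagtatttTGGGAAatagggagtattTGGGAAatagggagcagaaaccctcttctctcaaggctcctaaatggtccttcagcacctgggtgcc

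Both strands of the window of 300 bases around this start (250 before it and 50 after it) were searched for 5 motifs. TGGGAA had 3 matches, and 25.6% of the 32817 RefSeq promoter windows of the same length hold at least 1. An E-box (CANNTG) had 1 match, as in 72.3% of all windows with any, and a GC box (GGGCGG) had 1, with 35.6% of all windows holding it. The TATA box TATAAA, present in 13.6% of all windows, and the CTCF core CCANNAGGG, present in 5.98%, had no match. The window held 8 CpG dinucleotides and was 59.7% G and C, against medians of 7 and 52.7% over all windows. The RefSeq window of Nphs1 (from 30459808 to 30460107) lies downstream of both annotated coding starts of Nphs1 given above, held 6 CpG dinucleotides and none of the 5 motifs, and is not printed. A match of letters is a description of the sequence and not evidence of binding.

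Both genes were expressed in undifferentiated cells of both genotypes. In WT EBs they were at 0.728% (Kirrel2) and 1.14% (Nphs1) of the WT mESC level, and Kirrel2 was close to the limit of detection there. In CTCF-K20R EBs both stood at an intermediate level. Their difference between genotypes in EBs was therefore a smaller net drop from day 0, and in neither gene did CTCF-K20R EBs reach the level of mESCs. No sample was taken between day 0 and these EBs. Expression kept since day 0 and expression lost and then regained therefore cannot be told apart. The word retained is used below only for the level in EBs relative to day 0 of the same genotype. In bulk libraries, fewer cells that express a gene and less RNA per cell cannot be told apart. These values chose the pair and are not tested.

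WT mESCs had 904.8 and 922.4 normalized counts of Kirrel2, CTCF-K20R mESCs had 660.9 and 541.7, WT EBs had 6.81 and 6.49, and CTCF-K20R EBs had 167.5 and 227.6. The 4 groups did not overlap, and their order was WT mESCs, CTCF-K20R mESCs, CTCF-K20R EBs and WT EBs. The WT EB values correspond to about 7.10 and 8.01 reads. Rounding such estimates to whole reads gave approximate 95% Poisson intervals of 2.70 to 13.8 and 2.80 to 12.8 normalized counts. The gene was thus only just detected there. The mean in CTCF-K20R EBs, 197.5 ± 42.5 normalized counts (SD, n = 2), was 29.7-fold that of WT EBs, a log2 fold change of 4.68 (SE 0.243) on the log2(value + 1) scale.

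Of Nphs1, WT mESCs had 1591 and 1641 normalized counts, CTCF-K20R mESCs had 1222 and 1262, WT EBs had 17.9 and 18.9, and CTCF-K20R EBs had 507.4 and 389.3. Its groups stood in the same order as those of Kirrel2 and did not overlap either. In WT EBs it was low but clearly detected, with approximate 95% Poisson intervals of 10.97 to 28.4 and 11.8 to 28.0 normalized counts. The mean in CTCF-K20R EBs, 448.4 ± 83.5 normalized counts (SD, n = 2), was 24.4-fold that of WT EBs, a log2 fold change of 4.52 (SE 0.172). Ordered by the day 4 log2 fold change of the 15767 genes tested (mean of 10 or more normalized counts), the rise of Kirrel2 on day 4 ranked 17 and that of Nphs1 ranked 19, and within the subset averaging 100 or more they ranked 5 and 7.

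**Figure D1:**
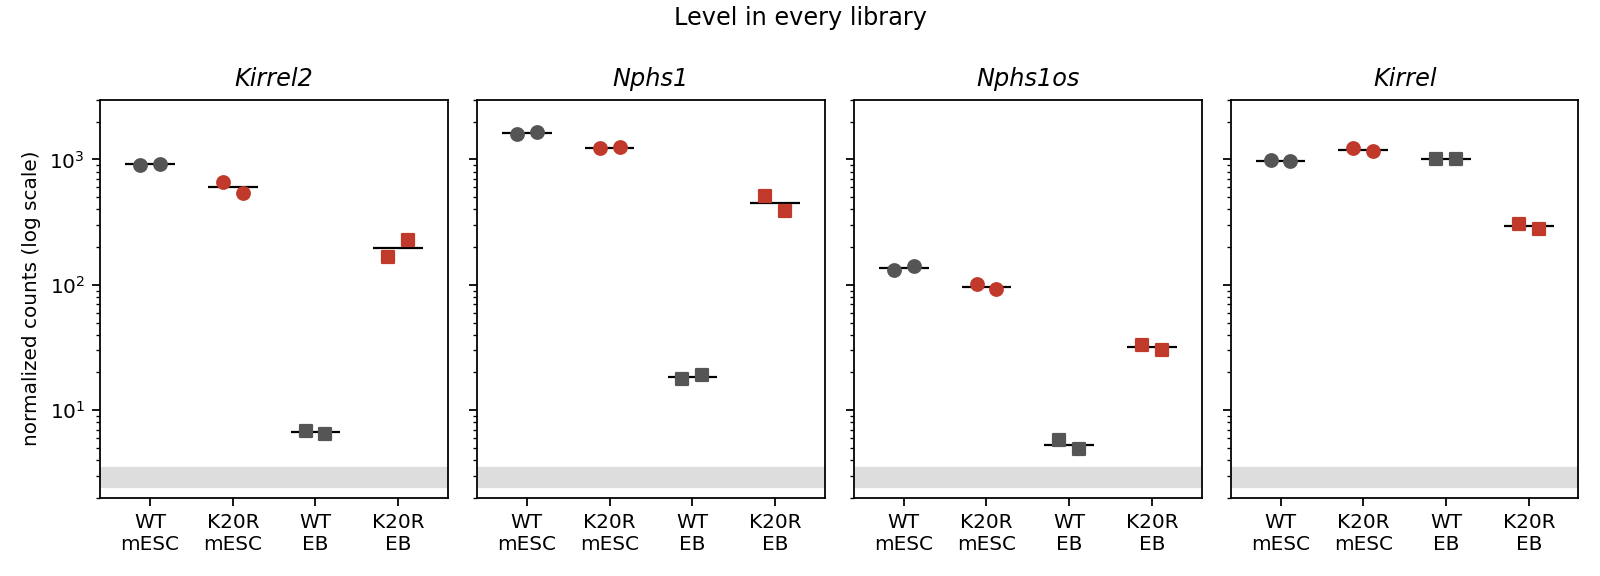
Normalized counts (log axis) of Kirrel2, Nphs1, the antisense gene Nphs1os and the paralog Kirrel in each of the 8 libraries. Each point is 1 library, each line is the mean of 2 libraries, and the grey band spans 3 reads (2.43 to 3.44 normalized counts). Kirrel2, Nphs1 and Nphs1os are lowest in WT EBs and intermediate in CTCF-K20R EBs, whereas Kirrel is lowest in CTCF-K20R EBs.

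Set against day 0 of the same genotype, Kirrel2 was at 0.728% of its mESC level in WT EBs and at 32.9% in CTCF-K20R EBs. Nphs1 was at 1.14% in WT EBs and at 36.1% in CTCF-K20R EBs. The fold change between genotypes differed between the days by 5.29 (SE 0.344) on the log2 scale for Kirrel2 and by 4.90 (SE 0.244) for Nphs1, and neither value carries a test because the day 4 values chose the genes.

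The day 0 comparison played no part in the choice and was tested. In mESCs, CTCF-K20R cells had 601.3 ± 84.3 normalized counts of Kirrel2 (SD, n = 2) against 913.6 in WT cells, a log2 fold change of -0.61 (SE 0.243, adjusted p = 0.158 from limma, with the Benjamini-Hochberg method over all genes tested). Nphs1 was at 1242 ± 27.6 against 1616, a log2 fold change of -0.38 (SE 0.172, adjusted p = 0.201 from the same test). For both genes the CTCF-K20R libraries lay below the WT libraries, and neither difference passed the test. Psenen, a gene far from passing on day 0 (adjusted p = 0.589 from limma), was separated in the same way. With all 8 libraries as separate samples, the adjusted p from limma was 0.0189 for Kirrel2 and 0.0345 for Nphs1, and neither reached a log2 fold change of 1 in size. Over all alternatives the adjusted p ranged from 0.0189 to 0.388 for Kirrel2 and from 0.0345 to 0.397 for Nphs1.

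The genes kept a similar but not fixed ratio. Per kb of their principal transcripts, WT mESCs had 1.28 and 1.29 times as much Nphs1 as Kirrel2, CTCF-K20R mESCs 1.35 and 1.69 times, WT EBs 1.91 and 2.12 times, and CTCF-K20R EBs 2.20 and 1.24 times. Nphs1 was thus the higher gene per kb in all 8 libraries. The CTCF-K20R EB libraries went opposite ways. Kirrel2 was lower in replicate 1 (95% Poisson interval 141.2 to 196.6 normalized counts) than in replicate 2 (197.8 to 260.6), while Nphs1 was higher in replicate 1 (461.1 to 556.7) than in replicate 2 (350.5 to 432.4). These intervals, which rest on estimated read numbers, do not overlap within either gene, so the CTCF-K20R EB libraries differed by more than counting error.

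One more transcript unit is annotated in the locus. Nphs1os (ENSMUSG00000087009, minus strand, from 30462164 to 30465591) lies inside Nphs1 on the opposite strand. The use of strand in the counting is not given in the sources used here, so its reads and those of Nphs1 cannot be told apart. It had 131.5 and 142.0 normalized counts in WT mESCs, 101.0 and 92.6 in CTCF-K20R mESCs, 5.77 and 4.87 in WT EBs, and 33.2 and 30.5 in CTCF-K20R EBs. Its day 4 values may restate those of Nphs1, which chose the pair, and are a description without a test. The log2 fold change was 2.38 on day 4 (SE 0.302) and -0.50 on day 0 (adjusted p = 0.325 from limma), and Nphs1os was retained at 32.9% of its day 0 level in CTCF-K20R EBs and at 3.89% in WT EBs. A gene is described as called where its log2 fold change exceeded 1 in size and its adjusted p was under 0.05. On day 4, 6.89% of all genes tested were called as higher and 8.65% as lower in CTCF-K20R EBs, and on day 0, 1.19% were called as higher and 2.6% as lower in CTCF-K20R mESCs.

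The Kirrel paralogs of the pair stood in another order. Kirrel (ENSMUSG00000041734, chromosome 3 from 87078593 to 87174747), which encodes NEPH1, the best known partner of nephrin, had 992.3 and 965.1 normalized counts in WT mESCs, 1233 and 1162 in CTCF-K20R mESCs, 1006 and 1013 in WT EBs, and 306.6 and 278.8 in CTCF-K20R EBs. It was at similar levels on both days in WT cells and was lower in CTCF-K20R than in WT EBs, with a log2 fold change of -1.79 (SE 0.0988, adjusted p = 0.000175 from limma). On day 0 its log2 fold change was 0.29 (adjusted p = 0.112), and with all 8 libraries as separate samples the adjusted p from limma was 0.00516. The fold change differed between the days by -2.08 (SE 0.14, adjusted p = 0.000707 from limma), and 12.9% of all genes tested were called in this contrast. The genes of the pair and Kirrel thus stood on opposite sides in EBs.

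Kirrel3, which encodes NEPH2, was below the filter and was not tested. It had 7.57 and 6.32 normalized counts in WT mESCs, 9.54 and 1.93 in CTCF-K20R mESCs, 20.0 and 17.2 in WT EBs, and 5.02 and 1.91 in CTCF-K20R EBs. In EBs, both CTCF-K20R values lay below both WT values, and 1 of them was under the limit of detection. Its antisense gene Kirrel3os, which was added after its values were seen, stayed between 59.1 and 92.7 normalized counts in all 8 libraries, with a log2 fold change of -0.06 on day 4 (adjusted p = 0.879 from limma).

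The genes around the pair were examined next. Within 500 kb of the midpoint between the outermost starts, 48 of the 52 other genes of the table were tested, of which 4 were called as higher and 4 as lower on day 4. Nphs1os is 1 of the 4 higher genes and carries the limit given above. These shares are close to the 6.89% and 8.65% of all genes. On day 0, 0 of the 48 were called by limma, and 10 had an unadjusted p under 0.05, 2 of them higher and 8 lower in CTCF-K20R mESCs. On day 4 the 48 genes had a median of -0.10 on the log2 scale, against 0.01 for all genes and 0.01 for the 184 genes tested within 5 Mb of Kirrel2.

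**Figure D2:**
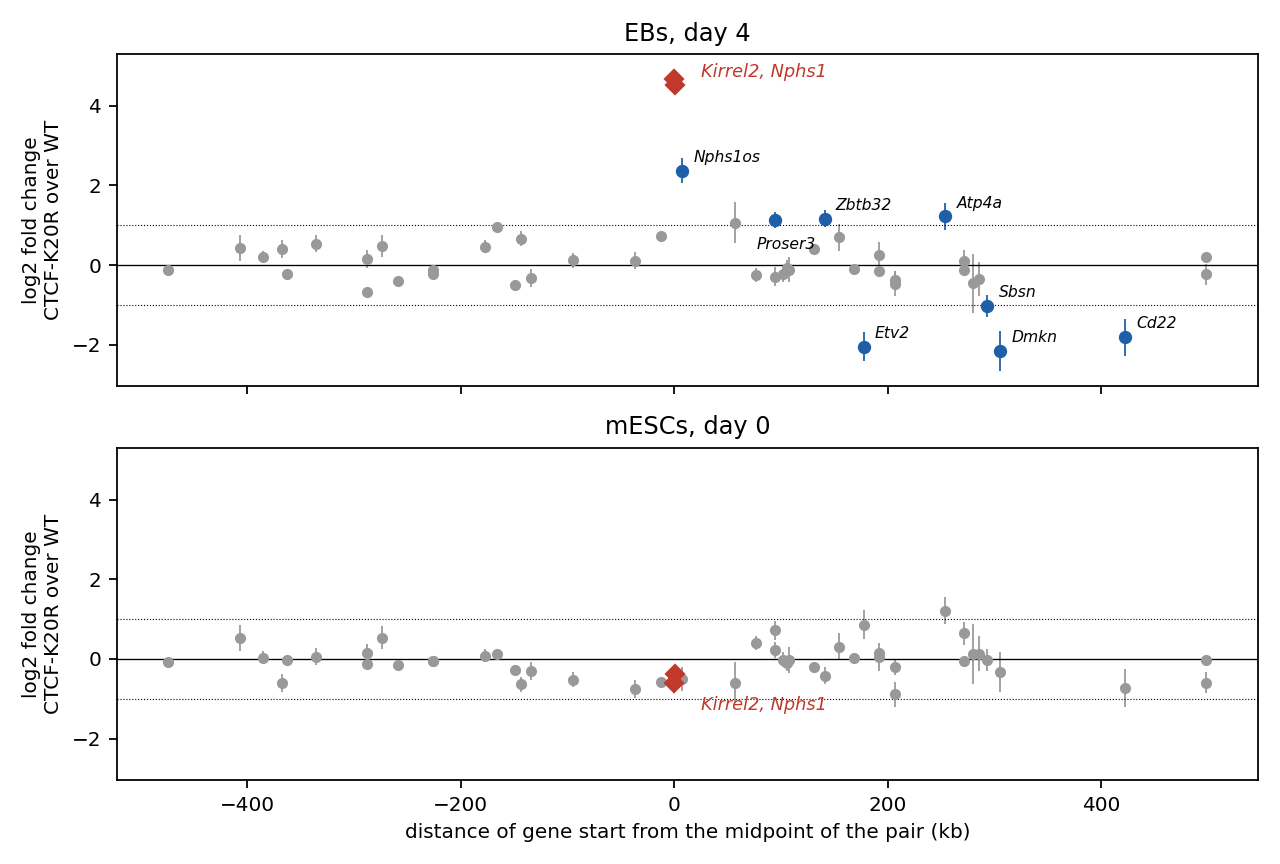
Log2 fold change of CTCF-K20R over WT for each of the 48 tested genes within 500 kb and for the pair (red diamonds), against the distance of the gene start from the midpoint of the pair in kb, in EBs on day 4 (top) and mESCs on day 0 (bottom). Bars are standard errors, blue points are called genes, and dotted lines mark log2 fold changes of 1 and -1. The pair lies at 4.68 and 4.52 on day 4, and the next highest gene is Nphs1os at 2.38.

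Within 100 kb, 8 genes were tested, of which Proser3 and, with the same limit, Nphs1os were called as higher on day 4 and none as lower (0 had an unadjusted p under 0.05 in that direction in limma). Aplp1, which encodes an amyloid precursor-like protein and is the next gene downstream of Kirrel2 on the same strand, also had its groups in the order of the pair. It had 1658 and 1628 normalized counts in WT mESCs, 1084 and 1121 in CTCF-K20R mESCs, 316.1 and 317.6 in WT EBs, and 524.8 and 532.6 in CTCF-K20R EBs. Its log2 fold change was 0.74 on day 4 (SE 0.0791, adjusted p = 0.00146 from limma) and -0.57 on day 0 (adjusted p = 0.0107), with 1.31 between the days (adjusted p = 0.00131). Both differences passed the adjusted p without the minimum fold change, as did 21.5% of all genes in the upward direction on day 4 and 7.57% in the downward direction on day 0. Aplp1 was retained at 19.3% of its day 0 level in WT EBs and at 48.0% in CTCF-K20R EBs, a smaller gap than in either gene of the pair. Arhgap33os stood in the same order too, at 14.3% and 46.1%, but passed on neither day (adjusted p = 0.153 on day 4 and 0.481 on day 0 from limma). The order was also that of Kmt2b and Zbtb32 further from the pair and of Prkci on another chromosome. Its share over all genes was not counted.

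Proser3 rose from 150.5 and 151.0 normalized counts in WT EBs to 365.3 and 297.6 in CTCF-K20R EBs (log2 fold change 1.12, adjusted p = 0.00848 from limma). Of the other genes within 100 kb, Arhgap33os had a log2 fold change of 1.07 on day 4 that did not pass (adjusted p = 0.153), and Lrfn3, Nfkbid, Arhgap33 and Hspb6 had log2 fold changes between -0.29 and 0.12. Prodh2 and Tyrobp, a receptor adaptor of immune cells, were below the filter, with at most 13.9 and 3.82 normalized counts in any library. Between 100 and 500 kb, Zbtb32, a zinc finger gene, rose by 1.17 and Atp4a, the gastric proton pump gene, by 1.22 on the log2 scale. In the other direction, Etv2, a transcription factor of blood and endothelial progenitors, fell by 2.05 and Cd22, a lectin gene of B cells, fell by 1.81. The epidermal genes Dmkn and Sbsn fell by 2.16 and 1.02. All of these were called on day 4.

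Over the whole genome, 798 pairs of neighbours transcribed away from each other had starts at most 1 kb apart and both genes tested. Both genes were called as higher on day 4 in 4 pairs (0.501%), both as lower in 4, and only 1 gene as higher in 32. In 1 of these 32 pairs the other gene was called as lower. Of all single genes tested, 6.89% were called as higher and 8.65% as lower. These are shares of genes, not of pairs, so the share of joint calls cannot be set against them directly. Whether joint calls were more common than single calls would give was not tested. The pair ranked first of the 4 by its smaller fold change, which follows from how it was chosen. In 2 of the other pairs, Patl2 and 4933406J08Rik had log2 fold changes of 3.10 and 4.08, and 5133400J02Rik and Gm12569 of 2.57 and 1.86. These names fall outside the rule for named genes and were added after their values were seen.

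The nephrin complex beyond the pair was read from 5 lists of podocyte genes, of which 44 were tested once the pair was left out. On day 4, 3 were called as higher and 5 as lower, and the median log2 fold change was 0.06, also with Foxc2 placed at its bound. On day 0, 0 were called as higher (8 had an unadjusted p under 0.05 in limma) and 1 as lower. Over all genes tested, 6.89% were called as higher and 8.65% as lower on day 4, and the counts of the lists lie near these shares.

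Of the slit diaphragm membrane proteins, 4 genes besides the pair were tested. Cdh3, which encodes P-cadherin, had 889.4 and 869.2 normalized counts in WT mESCs, 617.3 and 555.2 in CTCF-K20R mESCs, 151.1 and 153.7 in WT EBs, and 575.1 and 545.5 in CTCF-K20R EBs, so that it, too, was lowest in WT EBs. Its log2 fold change was 1.87 on day 4 (SE 0.114, adjusted p = 0.000228 from limma) and -0.59 on day 0 (adjusted p = 0.0269). The 122 genes tested within 5 Mb of Cdh3, a stretch of chromosome 8 that also holds Ctcf, shifted upward on both days, with medians of 0.56 on day 4 and 0.58 on day 0 on the log2 scale, and the part of this in the day 4 value of Cdh3 was not tested. The giant protocadherin gene Fat1, also on chromosome 8 but outside that stretch, moved the same way as Cdh3 at a smaller size. Its log2 fold changes were 0.93 on day 4 (adjusted p = 0.000231) and -0.69 on day 0 (adjusted p = 0.00253, all from limma). The surroundings of Fat1, and of Sox1 on the same chromosome, were not examined in this way. Crb2, a crumbs polarity gene, moved against the pair, from 611.2 and 566.0 normalized counts in WT to 98.1 and 93.3 in CTCF-K20R EBs (log2 fold change -2.61, adjusted p = 0.0271). Trpc6, a cation channel gene of the slit diaphragm, was below the filter, was listed at 0 in both CTCF-K20R EB libraries, and was at least 2.45-fold lower there than in WT EBs, at 8.69 and 8.16. Ptpro was not analysed here.

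None of the 19 adaptor and kinase genes that act inside the cell on nephrin, such as Cd2ap, Nck1, Nck2 and Fyn, was called on either day by limma. On day 4, 6 of them were higher and 5 lower at an unadjusted p under 0.05, and the median of the 19 was 0.05. Of the 7 actin regulators, Synpo, which encodes synaptopodin, was called, falling from 81.8 and 77.5 normalized counts in WT EBs to 0.915 and 6.02 in CTCF-K20R EBs, the first of which is under the limit of detection. Among the podocyte transcription factors, Wt1 rose from 24.02 and 23.6 to 159.8 and 145.1 normalized counts (log2 fold change 2.63, adjusted p = 0.0144 from limma). Foxc1 fell from 388.9 and 387.8 to 18.5 and 11.7 (log2 fold change -4.63, adjusted p = 0.0012 from limma), and Foxc2 was at 89.6 and 82.5 in WT EBs and listed at 0 in both CTCF-K20R EB libraries, at least 25.04-fold lower. Foxc1 and Foxc2 are also genes of early mesoderm, whose markers were lower in CTCF-K20R EBs as given above. Of the surface and basement membrane genes, the integrin gene Itga3 rose from 199.9 and 198.1 to 1172 and 1176 normalized counts (log2 fold change 2.55, adjusted p = 6.68e-05 from limma). Thsd7a fell by 3.79 on the log2 scale on day 0 (adjusted p = 0.00643) and was the 1 gene of the lists called there.

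**Figure D3:**
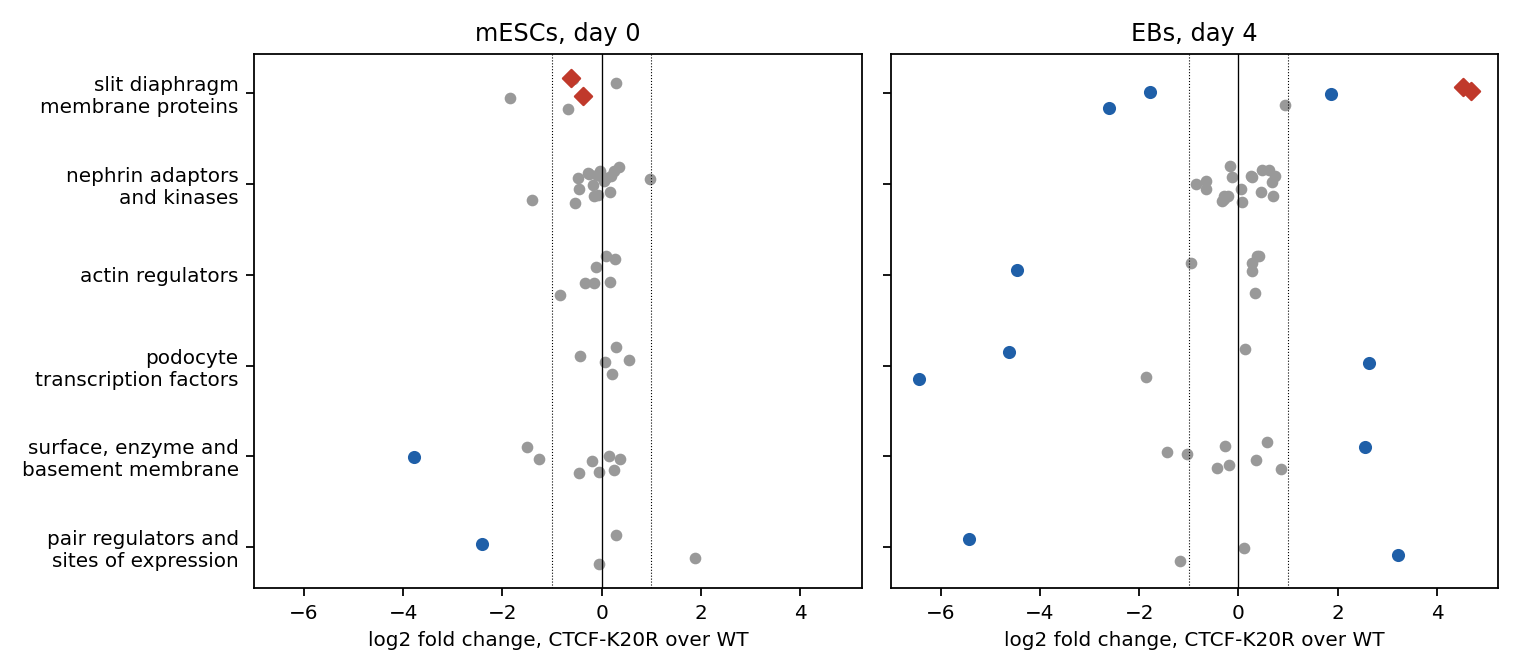
Log2 fold change of CTCF-K20R over WT for the tested genes of 6 lists in mESCs on day 0 (left) and EBs on day 4 (right). Each point is 1 gene, blue points are called, red diamonds are Kirrel2 and Nphs1, dotted lines mark 1 and -1, and the vertical scatter within a list only separates points. The pair moves from -0.61 and -0.38 on day 0 to 4.68 and 4.52 on day 4, while the adaptors and kinases stay uncalled.

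The transcription factors known to act on the pair and genes of its other sites of expression were read in the same way. Rbpj was expressed in all libraries, with 2481 and 2492 normalized counts in WT against 2687 and 2665 in CTCF-K20R EBs (log2 fold change 0.11, adjusted p = 0.0931 from limma). Lhx5, Pax2, Pdx1 and Neurog3, genes of dorsal interneurons or the pancreas, were below the filter, and none exceeded 18.2 normalized counts in any library. Gsx2 was highest in CTCF-K20R mESCs, at 74.4 and 60.2 normalized counts, and no higher than 3.18 in any EB library. Neurod1, a neuronal and endocrine transcription factor, had 73.3 and 68.5 normalized counts in WT mESCs, 14.7 and 10.7 in CTCF-K20R mESCs, 17.4 and 17.4 in WT EBs, and 181.3 and 158.3 in CTCF-K20R EBs. It was lower on day 0 (log2 fold change -2.41, adjusted p = 0.0122 from limma) and higher on day 4 (3.21, adjusted p = 0.00149), and, unlike the pair, it was higher in CTCF-K20R EBs than in mESCs of either genotype. Nkx6-1 was at 42.2 and 42.1 in WT EBs and listed at 0 in both CTCF-K20R EB libraries, at least 12.3-fold lower. The other genes of this list, Ptf1a among them, were not analysed here.

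The genes whose profiles were most like that of the pair were found by the Euclidean distance between log2(value + 1) profiles, each centred on its own mean, over the 6 samples and among 12381 genes averaging 50 or more normalized counts. Kirrel2 and Nphs1 lay 0.739 apart, which follows in part from choosing both by their day 4 values. Distances of all genes compared from the mean profile of the pair had a median of 5.51. These are unlike measures, since the first is between 2 genes and the second is from a mean. The 5 genes nearest to the mean profile included Sox1 at 0.793, Gdf3 at 1.15, D1Pas1 at 1.25 and Mageb16 at 1.41. The same 5 genes came first over the 8 libraries taken separately. They were chosen for their likeness, so their values are a description without a test, and all points share the same libraries.

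Gdf3, a TGF-beta family ligand of pluripotent cells, had 2015 and 2023 normalized counts in WT mESCs, 1444 and 1420 in CTCF-K20R mESCs, 45.3 and 48.0 in WT EBs, and 467.2 and 482.3 in CTCF-K20R EBs. Its groups stood in the order of the pair. D1Pas1, a DEAD-box helicase gene of the germ line, was retained at 1.12% of its day 0 level in WT EBs and 23.2% in CTCF-K20R EBs. Mageb16, of the MAGE family, was retained at 1.97% and 15.1%. Unlike the pair, Mageb16 was higher in CTCF-K20R mESCs, at 1565 and 1529 normalized counts, than in WT mESCs, at 1047 and 1040. Sox1, a transcription factor of neural progenitors, had 131.4 and 128.2 normalized counts in WT mESCs, 146.2 ± 5.35 (SD, n = 2) in CTCF-K20R mESCs, 1.78 and 1.502 in WT EBs, under the limit of detection, and 40.1 and 53.8 in CTCF-K20R EBs. Like the pair, these genes were expressed in mESCs, nearly gone from WT EBs and at intermediate levels in CTCF-K20R EBs.

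How common such levels in CTCF-K20R EBs were could be counted over the table. In WT cells, 182 genes had at least 100 normalized counts in mESCs and at most 5% of that level in EBs, and 29 of them (15.9%) were at 20% or more of their own day 0 level in CTCF-K20R EBs. These limits were set after the values of the pair were seen. The median over the 182 genes in CTCF-K20R EBs was 7.19%, above the 5% limit used for WT EBs and below the 20% limit. Levels above 5% in CTCF-K20R EBs were thus common among these genes and not particular to the pair. Sox2 is among the 29. Nphs1 ranked 7, Nphs1os 10 and Kirrel2 11 by the level retained. With the limit in CTCF-K20R EBs at 10% the count was 71 of the same 182 genes. With the limit in WT EBs at 10% it was 99 of a larger set of genes. The size of that set is not given here, so 99 cannot be read as a share.

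**Figure D4:**
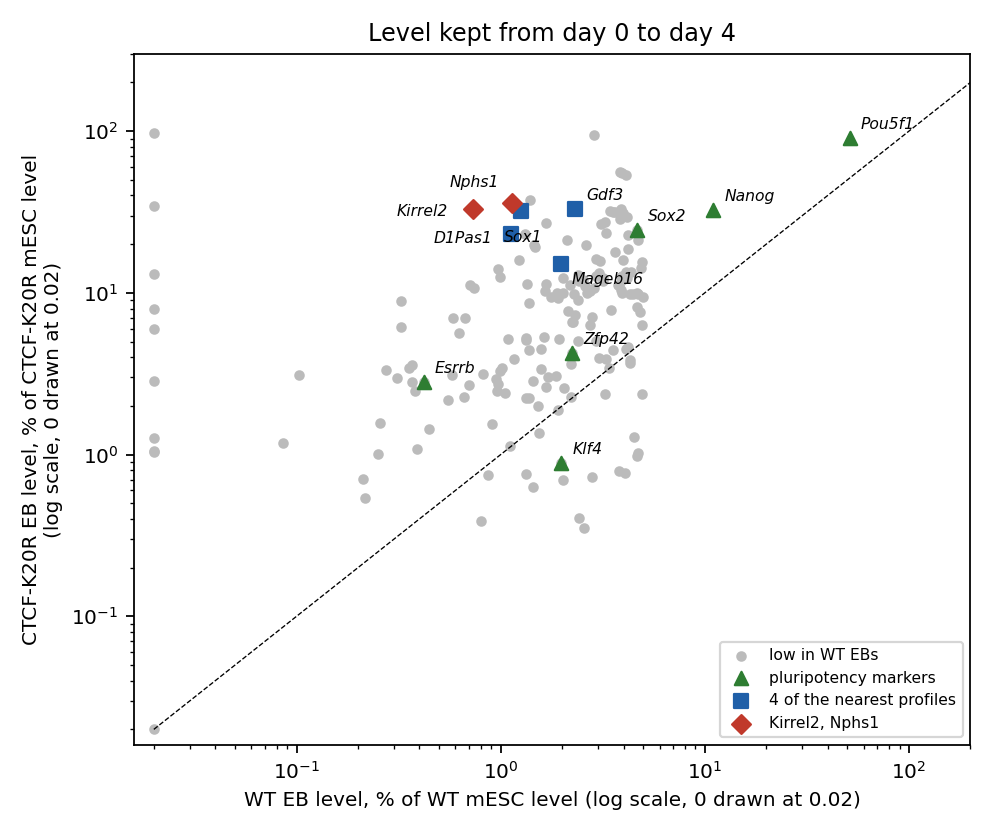
Level in EBs as a percentage of the level in mESCs of the same genotype, for WT (horizontal, log axis) and CTCF-K20R (vertical, log axis), with values of 0 drawn at 0.02. Grey points are the 182 genes low in WT EBs, green triangles the 6 pluripotency markers, blue squares 4 of the nearest profiles and red diamonds the pair, and the dashed line marks equal percentages. Kirrel2 (0.728% and 32.9%) and Nphs1 (1.14% and 36.1%) lie far above the line.

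Pluripotency markers moved with the pair to different degrees. Pou5f1 was retained at 51.3% in WT EBs and 90.6% in CTCF-K20R EBs, Nanog at 11.03% and 32.5%, and Sox2 at 4.67% and 24.4%. Esrrb was retained at 0.419% and 2.82% and Zfp42 at 2.24% and 4.25%. Klf4 went the other way, at 1.99% and 0.889%. In limma, Nanog, Sox2, Esrrb and Zfp42 were called as higher and Klf4 as lower in CTCF-K20R EBs. The summed level of the 6 markers in CTCF-K20R EBs was 2.04-fold that in WT EBs, against 29.7-fold for Kirrel2 and 24.4-fold for Nphs1. Pou5f1 held most of this sum. By gene the fold was 1.72 for Pou5f1, 2.26 for Zfp42, 3.15 for Nanog, 5.25 for Sox2, 6.35 for Esrrb and 0.357 for Klf4. The part of remaining mESC-like cells in the values of the pair was not tested. The fibroblast markers, which could come from the feeder layer, were above WT in CTCF-K20R EBs for 3 of 7 genes and below it for 3.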

How the data were processed

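RNA was sequenced from poly(A)-selected libraries. The authors trimmed the reads with Trim Galore, ran Salmon against mouse mm10, collapsed its output per gene (tximport) and scaled the result between libraries (DESeq2). The deposited signal values are thus normalized counts for each gene. Annotation release and strand are not given in the sources used here. Whole reads could not be recovered, since only 40.3% to 51.5% of low values lay within 0.05 reads of a whole number, so no count model was used.

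Values were analysed as log2(value + 1), which understates the change of low genes, with limma 3.58.1 under R 4.3.3 (functions lmFit and eBayes, trend on the mean; 2 residual and 3.51 prior degrees of freedom) over 15767 genes averaging 10 or more normalized counts. All 4 groups entered 1 fit of 6 samples, with each WT pair averaged, and p-values were two-sided and adjusted by the Benjamini-Hochberg method over all genes. Because WT counts as 1 sample per day, p-values measure only the spread between CTCF-K20R libraries, which may be technical. The script was tested on simulated data. Positions came from GENCODE vM21, in which 15664 of the genes tested were found, and promoter sequences from RefSeq (GRCm38.p6). Python 3.11.15 and matplotlib 3.10.9 drew the plots.

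The members, gene lists and rules were chosen with earlier results of these data known. Named genes were the Kirrel and Nphs genes, Ctcf, all slit diaphragm and regulator genes, called genes of the other lists, neighbours within 100 kb, called neighbours within 500 kb and the 5 nearest profiles, of which some are not reported here. Alternatives were other pseudocounts, filters, scalings, the libraries of 1 day only, no trend, all 8 libraries, a replicate block and each library left out.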

Additional observations from a re-analysis of the deposited data

Results flagged for a closer look

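For 17 of the 33 named genes tested besides the pair, the difference between genotypes changed between day 0 and day 4 by more than 1 on the log2 scale with an adjusted p under 0.05 in limma, against 12.9% of all genes tested. Many of these genes were named because they were called on a single day or resembled the pair, so their share follows in part from the naming. The difference between the days was positive, that is toward CTCF-K20R on day 4, for Nphs1os (2.87), Fat1 (1.62), Cdh3 (2.46), Neurod1 (5.62), Thsd7a (2.76), Itga3 (2.40), Aplp1 (1.31) and Zbtb32 (1.59). It was negative for Kirrel (-2.08), Foxc1 (-4.83) and Etv2 (-2.91). It was also negative for Nkx6-1 (-5.72) and Foxc2 (-7.00), whose values rest on the pseudocount because both were listed at 0 in CTCF-K20R EBs. Of these genes, 6 were named from a list or position and not for their own call (Fat1, Cdh3, Neurod1, Aplp1, Kirrel and Nkx6-1). Their adjusted p from limma ranged from 0.000289 for Fat1 to 0.00828 for Nkx6-1. All 6 were taken from genes that met the criterion, so values under 0.05 were fixed in advance. Genes of the same lists and positions that did not meet it include Rbpj, Gsx2, Crb2 and Lrfn3. The lists themselves were chosen with earlier results of these data known. No p is given for genes named because they were called, or for Nphs1os, whose reads cannot be told from those of Nphs1.

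The 4 genes named for profiles near that of the pair also met this criterion, with differences of 4.00 for Sox1, 3.81 for Gdf3, 4.23 for D1Pas1 and 2.87 for Mageb16. They were chosen for this likeness, so no p is given, and the value of Sox1 rests on WT EB libraries under the limit of detection. Kirrel2 (5.29) and Nphs1 (4.90) lay below WT in both CTCF-K20R libraries on day 0 and above WT in both on day 4, and for these 2 genes the difference between the days was not tested.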

How the results depend on the processing

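The log2 fold changes of Kirrel2, Nphs1, Kirrel and Nphs1os kept their direction on both days under all 18 alternatives, and the day 4 call of Kirrel held in each. On day 4, Kirrel2 ranged from 4.10 (pseudocount 5, the 1 setting that moved it by more than the spread between libraries) to 4.97, and Nphs1 from 4.26 to 4.75. On day 0, the adjusted p from limma passed in 2 settings at nearly the same fold changes, of -0.61 for Kirrel2, -0.38 for Nphs1, 0.29 for Kirrel and -0.49 for Nphs1os. In this order, it was 0.0189, 0.0345, 0.00516 and 0.0329 when all 8 libraries were separate samples, and 0.031, 0.0481, 0.00463 and 0.0494 when the replicate block was added. Both settings count the near-identical WT libraries as separate samples. The replicate numbers did not pair the libraries (correlations of deviations from -0.0397 to 0.000986), so libraries of the same number share only that number.

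The counts depended more on the settings. Called neighbours within 500 kb on day 4 (8) became 5 with a minimum mean of 50, 15 with the adjusted p alone and 4 within 250 kb, and ranged from 2 to 8 when 1 library was left out (5 without either CTCF-K20R mESC replicate, 4 without CTCF-K20R EB replicate 1 and 2 without replicate 2). On day 0 (0) they became 1 with all 8 libraries, 1 with the replicate block and 1 with the adjusted p alone. Called podocyte genes on day 4 (8) became 5 with a minimum mean of 50, 5 without a trend and 25 with the adjusted p alone, and ranged from 5 (without CTCF-K20R EB replicate 1) to 10 with 1 library left out. On day 0 (1) they became 4 with all 8 libraries, 4 with the block, 2 after quantile normalization, 0 with the day 0 libraries alone, 0 without a trend and 12 with the adjusted p alone, and ranged from 0 to 2. Over the whole table, the 2451 genes called on day 4 became 6329 with the adjusted p alone and ranged from 1590 (without CTCF-K20R EB replicate 1) to 2474. The 598 called on day 0 became 1348 with all 8 libraries, 1344 with the block, 146 with day 0 alone, 56 without a trend and 2429 with the adjusted p alone, and ranged from 0 (without either CTCF-K20R EB replicate) to 615, with 309 and 325 without CTCF-K20R mESC replicate 1 and 2. Head-to-head pairs with both genes higher (4) became 1 with a minimum mean of 50 and 9 after quantile normalization, and ranged from 2 (without CTCF-K20R EB replicate 2) to 5. The cause of these shifts was not tested. The level of Kirrel2 in WT EBs, of about 7.10 and 8.01 reads, limits the precision of its fold change.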
